A study of Drosophila melanogaster with 51 samples.

Results

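The genes of the cytoplasmic ribosome and of translation initiation and elongation were followed in fruit fly larvae with mutations in a subunit of the COP9 signalosome. The members are all array genes whose current symbol begins with RpL, RpS, eIF or eEF. There were 30 of them among 6187 array features: 6 genes with a ribosomal protein symbol, 23 initiation factor genes and 1 elongation factor gene. The RefSeq table holds 144 genes with such symbols, so most of the cytoplasmic ribosome was not analysed here.

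A ribosome is built in the nucleolus from ribosomal RNA and ribosomal proteins, with the help of assembly factors. Initiation factors load the initiator tRNA onto the small subunit, bind the cap of the mRNA and bring both subunits together, and elongation factors then deliver the following tRNAs. Larval growth in the fly depends on making ribosomes and protein, and both respond to nutrition through the TOR pathway. The COP9 signalosome takes the small protein Nedd8 off cullins, and CSN5 is its catalytic subunit.

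Total RNA of mutant larvae was set against that of age-matched wild type on 51 arrays, in 2 colours with dye reversals. The genotypes were csn4null, csn5null, csn51 and csn53, against a wild type called w118 (on 1 csn4null array only wild type). With 3 ages, 60, 72 and 96 h from egg deposition, this gives 12 groups of 3 to 5 arrays. Whole larvae were extracted. Stage, sex, zygosity and the number of larvae per extract are not in the labels, nor is the nature of csn51 and csn53, and the arrays within a group are called biological replicates there. At 60 h the wild type has the same label number on all 5 csn5null arrays and on 3 csn51 arrays and may be 1 extract, in which case its own spread is missing from those p-values. Values are given as log2 of mutant over wild type with the standard error (SE) of the fit, so that 1 means 2 times as much in the mutant. This direction is the likely one: it makes CSN4 lower in csn4null larvae (-2.39, -2.47 and -2.19 by age) and CSN5 lower in csn5null larvae (-4.45, -2.94 and -2.03). For csn51 and csn53 larvae the same direction is assumed, since CSN5 lay only between -0.53 and 0.25 in their groups. In whole larvae, fewer cells of a type and less RNA per cell cannot be told apart, and ratios do not show how abundant one gene is beside another.

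A few csn5null arrays stood apart and are named where they matter, namely replicate 5 at 60 h, replicate 3 at 72 h and replicate 3 at 96 h. Their median correlation with the other arrays of their group was -0.012, -0.00521 and 0.0721, against 0.523 to 0.875 for all other arrays. CSN5 was at -0.32 on replicate 3 at 72 h and at -0.01 on replicate 3 at 96 h, against -1.16 or lower on the other csn5null arrays.

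Over the 12 groups, 128 of 360 member and group pairs passed the test (limma, adjusted p under 0.05), 73 higher and 55 lower in the mutant. That is 35.6%, beside 31.2% of all feature and group pairs. Initiation factors gave 104 calls of 276 (66 higher and 38 lower, 37.7%), the genes with a ribosomal protein symbol 17 of 72 (7 higher and 10 lower, 23.6%) and the elongation factor 7 of 12, all lower. Of the 128 calls, 60 held whichever array of the group was left out, and 68 were lost without at least 1 of them.

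At 60 h more of the 30 members lay below 0 than above it in every genotype. Below 0 were 23 in csn4null, 24 in csn5null, 17 in csn51 and 18 in csn53 larvae. The medians of all features were near 0 there (-0.014, -0.005, 0.009 and -0.002 in the same order). Of the 6 genes with a ribosomal protein symbol, however, 4 lay above 0 in csn51 and 5 in csn53 larvae at 60 h. At 96 h 20 of the 30 members lay above 0 in csn4null, 21 in csn51 and 24 in csn53 larvae, against 11 in csn5null larvae. By the test, 1 and 3 members were higher and lower at 60 h in csn4null larvae, beside 9.77% and 8.08% of all features. The same counts were 0 and 1 in csn5null larvae (all features 4.54% and 3.39%), 6 and 9 in csn51 larvae (all features 24.1% and 22.9%) and 3 and 11 in csn53 larvae (all features 25.3% and 24.9%). At 72 h they were 2 and 4 in csn4null larvae (all features 12.6% and 12.4%), 0 and 14 in csn5null larvae (all features 8.32% and 9.44%), 11 and 3 in csn51 larvae (all features 17.6% and 16.9%) and 8 and 1 in csn53 larvae (all features 15.8% and 14.2%). The csn5null larvae thus had lower members alone at 72 h. At 96 h the counts were 11 and 3 in csn4null larvae (all features 15.1% and 16.3%), 2 and 4 in csn5null larvae (all features 9.47% and 7.79%), 17 and 2 in csn51 larvae (all features 27% and 28.1%) and 12 and 0 in csn53 larvae (all features 21% and 19.5%). Without replicate 3 of csn5null at 72 and at 96 h, 9 members were called in csn5null larvae at 72 h, all lower, and 13 at 96 h. With any 1 array of csn4null larvae at 60 h left out, 1 or 2 members were called there.

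Both classes are given apart. Of the 23 initiation factors, 14 were higher and 2 lower in csn51 larvae at 96 h, 11 higher and 0 lower in csn53 larvae, 9 higher and 2 lower in csn4null larvae and 2 higher and 1 lower in csn5null larvae. At 60 h 6 were higher and 7 lower in csn51 larvae, and 2 higher and 9 lower in csn53 larvae. The median of these 23 on an array averaged -0.08 ± 0.05 (SD, n = 4), 0.21 ± 0.07 (n = 4) and 0.27 ± 0.12 (n = 5) in csn51 larvae of 60, 72 and 96 h. In csn53 larvae it averaged -0.16 ± 0.09 (SD, n = 5), 0.11 ± 0.05 (n = 4) and 0.20 ± 0.09 (n = 5) in the same order of age. In csn4null larvae it averaged -0.17 ± 0.05 (SD, n = 3), -0.07 ± 0.07 (n = 4) and 0.14 ± 0.07 (n = 4). In these 3 genotypes it was below 0 on every array at 60 h and above 0 on every array at 96 h. In csn5null larvae it averaged -0.10 ± 0.09 (SD, n = 5), -0.17 ± 0.08 (n = 4) and 0.03 ± 0.06 (n = 4). There too it was below 0 on every array at 60 h, but at 96 h its arrays lay on both sides of 0.

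**Figure D1:**
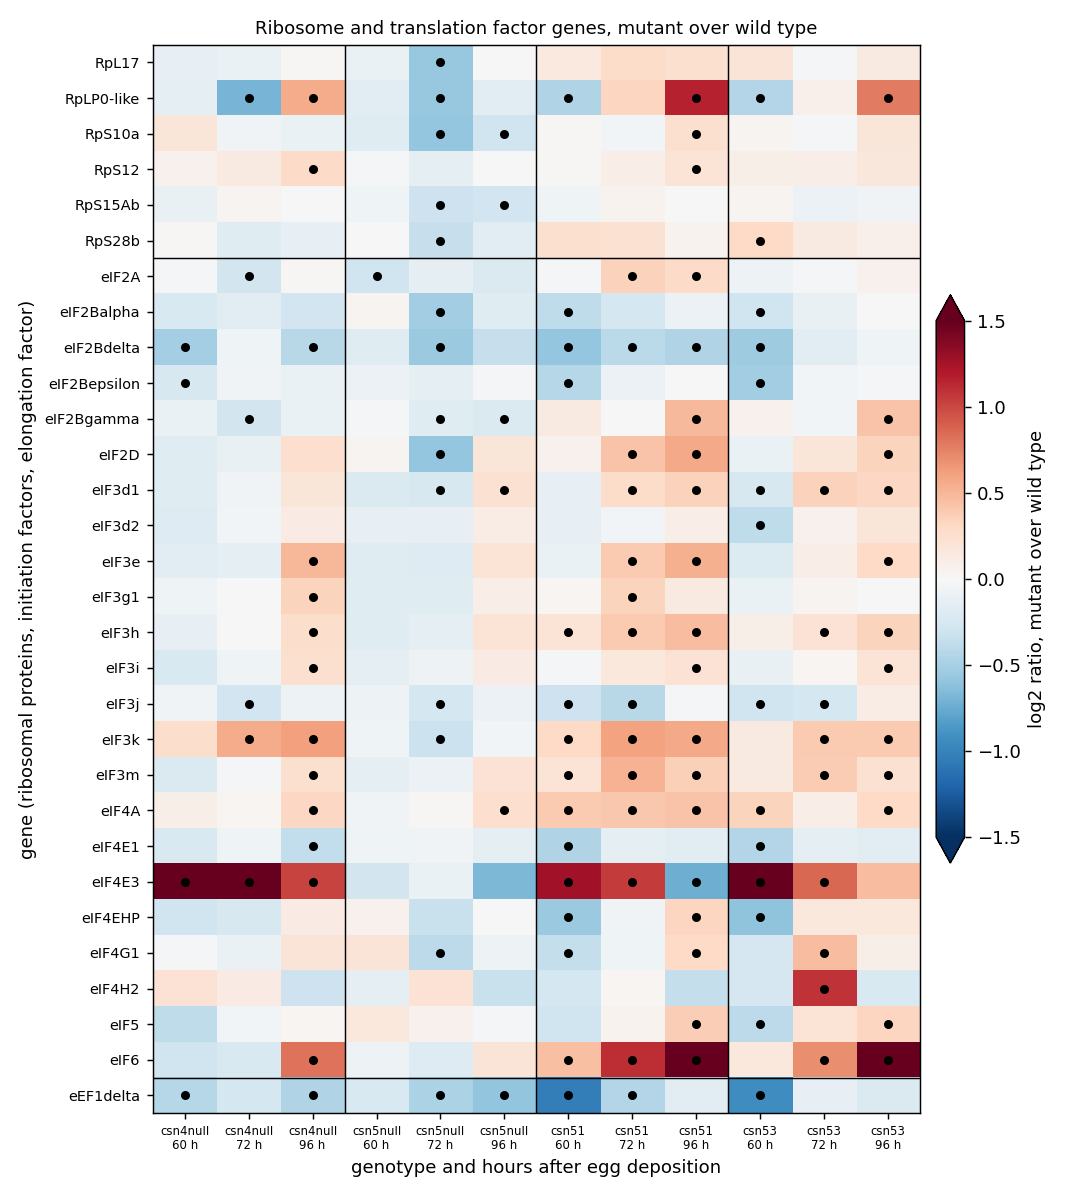
Log2 ratio of mutant over wild type (colour, capped at the ends of the bar) for the 30 genes (rows) in the 12 genotype and age groups (columns). Black dots mark adjusted p under 0.05. In csn51 larvae 9 genes are lower and 6 higher at 60 h (all features 22.9% and 24.1%). At 96 h 2 are lower and 17 higher there (all features 28.1% and 27%). In csn53 larvae 11 are lower and 3 higher at 60 h (all features 24.9% and 25.3%), and 0 and 12 at 96 h (all features 19.5% and 21%). In csn5null larvae at 72 h 14 are lower and none is higher (all features 9.44% and 8.32%).

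The genes with a ribosomal protein symbol were mostly lower in csn5null larvae at 72 h and seldom called elsewhere, apart from RpLP0-like. They were RpL17, a protein of the large subunit, RpS10a, RpS12, RpS15Ab and RpS28b of the small subunit, and RpLP0-like, which resembles the stalk protein P0 but whose yeast counterpart Mrt4 is an assembly factor of the large subunit. Their median on an array averaged -0.30 ± 0.08 (SD, n = 4) in csn5null larvae at 72 h, with the 4 arrays at -0.39 to -0.21. In the other 11 groups the average lay between -0.15 and 0.20, the lowest being csn5null larvae at 96 h. Without replicate 3 of both ages it was -0.28 in csn5null larvae at 72 h and -0.25 at 96 h, so these 2 ages then lay close together. In csn51 larvae at 96 h it averaged 0.20 ± 0.10 and in csn53 larvae at 96 h 0.13 ± 0.04 (SD, n = 5 each), above 0 on every array. The median of all features lay between -0.02 and 0.02 on each of the 51 arrays.

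In csn5null larvae at 72 h, 5 of the 6 genes were lower. RpS10a had -0.37, -0.44, -0.39 and -1.11 on the 4 arrays, and -0.58 ± 0.10 (adjusted p = 8.46e-05) in the fit. All 4 arrays were below 0, with replicate 4 far under the rest. RpS15Ab had -0.26, -0.15 and -0.58 on the 3 arrays with a value (-0.31 ± 0.11, adjusted p = 0.0361), each below 0. RpLP0-like had -0.90, -0.86, 0.36 and -0.87 (-0.57 ± 0.18, adjusted p = 0.0263), and here replicate 3 went against the other arrays. RpL17 had -0.29, -0.27, -2.09 and 0.35 (-0.57 ± 0.16, adjusted p = 0.0122) and RpS28b -0.06, -0.01, -1.19 and -0.12 (-0.35 ± 0.11, adjusted p = 0.0298). For both genes replicate 3 was by far the lowest array. Without replicate 3 of the 72 h and of the 96 h larvae, RpL17 (-0.07, adjusted p = 0.749) and RpS28b (-0.05, adjusted p = 0.784) were no longer called. RpS10a (-0.64, adjusted p = 7.9e-05), RpLP0-like (-0.86, adjusted p = 0.000791) and RpS15Ab (-0.31, adjusted p = 0.0334) still were. Leaving out 1 array of this group at a time, the call was lost in 0 of 4 fits for RpS10a, in 2 of 4 for RpS15Ab and in 3 of 4 for RpLP0-like. In a fit of the 4 arrays by themselves 0 of the 30 members passed.

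At 96 h RpS10a and RpS15Ab were lower in csn5null larvae as well. RpS10a had -0.44, -0.69, -0.07 and -0.01 (-0.30 ± 0.10, adjusted p = 0.0323), with replicates 3 and 4 near 0. RpS15Ab had -0.50, -0.27, -0.11 and -0.24 (-0.28 ± 0.09, adjusted p = 0.0284), all below 0. In a fit of these arrays alone the adjusted p was 0.257 for RpS10a and 0.183 for RpS15Ab. Close paralogues of RpS10a, RpS15Ab and RpS28b exist in the fly genome (RpS10b, RpS15Aa and RpS28a), and RNA of gene and paralogue on such a spot cannot be told apart.

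RpS12, a small subunit protein known in the fly for its part in cell competition, rose modestly. It had 0.12, 0.21, 0.39 and 0.44 in csn4null larvae at 96 h (0.29 ± 0.08, adjusted p = 0.0044), above 0 on each array. In csn51 larvae of that age it had 0.14, 0.19, 0.43, -0.06 and 0.34 (0.20 ± 0.07, adjusted p = 0.0162), and 0.15 without replicate 3 (adjusted p = 0.106). RpS10a rose in csn51 larvae at 96 h (0.41, 0.03, 0.14, 0.27 and 0.37, in the fit 0.24 ± 0.09, adjusted p = 0.0229) and was at 0.19 without replicate 1 (adjusted p = 0.115). RpS28b rose in csn53 larvae at 60 h (0.16, 0.28, 0.39, 0.47 and 0.20, in the fit 0.29 ± 0.10, adjusted p = 0.0147) and was at 0.26 without replicate 4 (adjusted p = 0.0669). RpL17 was called in no group besides csn5null at 72 h.

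**Figure D2:**
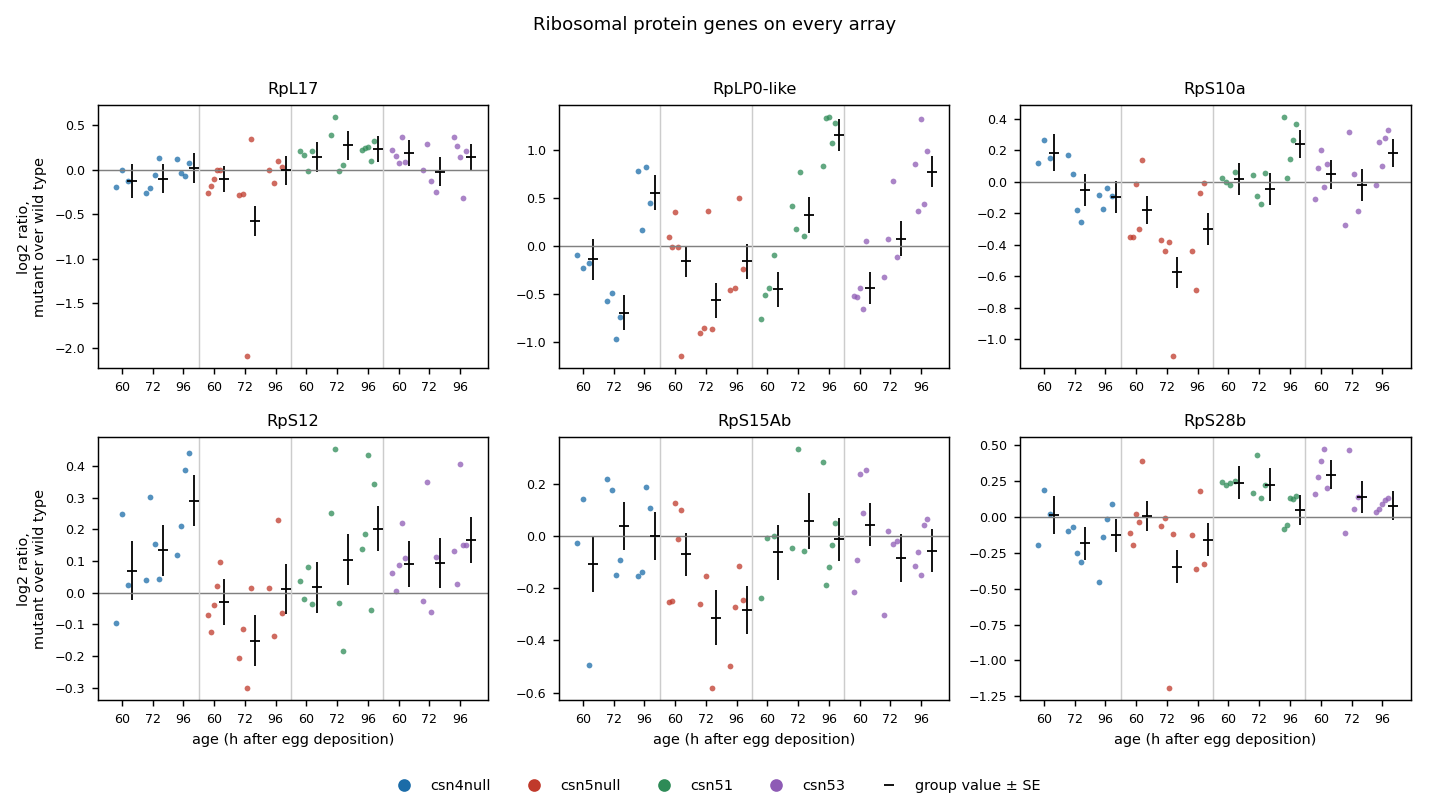
Log2 ratio of mutant over wild type for the 6 genes with a ribosomal protein symbol, 1 panel each with its own scale. Coloured points are single arrays and black marks are the group value ± SE. The lowest RpL17 (-2.09) and RpS28b (-1.19) points are the same csn5null array at 72 h, and RpLP0-like runs upwards with age in csn51 and csn53 larvae.

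RpLP0-like had the widest range of group values among the 6 and changed sign with age. Its csn4null arrays read -0.09, -0.23 and -0.18 at 60 h, then -0.58, -0.49, -0.97 and -0.74 at 72 h and finally 0.78, 0.17, 0.83 and 0.45 at 96 h. It fell at 72 h, with -0.70 ± 0.18 (adjusted p = 0.00365), and rose at 96 h, with 0.56 ± 0.18 (adjusted p = 0.0173), and the arrays of these 2 ages did not overlap. In csn51 larvae it had -0.76, -0.51, -0.44 and -0.10 at 60 h (-0.45 ± 0.18, adjusted p = 0.04), 0.41, 0.17, 0.78 and 0.11 at 72 h (0.32 ± 0.19, adjusted p = 0.183) and 0.83, 1.33, 1.34, 1.08 and 1.29 at 96 h (1.16 ± 0.16, adjusted p = 1.17e-07). The csn53 larvae followed, with -0.52, -0.53, -0.44, -0.66 and 0.05 at 60 h (-0.44 ± 0.16, adjusted p = 0.0245), -0.33, 0.07, 0.68 and -0.12 at 72 h (0.08 ± 0.18, adjusted p = 0.798) and 0.85, 0.37, 1.32, 0.44 and 0.99 at 96 h (0.78 ± 0.16, adjusted p = 0.000168). In both genotypes every 96 h array lay above every 60 h array. The 60 h calls were lost in 3 of 4 fits without 1 csn51 array and in 4 of 5 without 1 csn53 array.

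eIF6 reached higher ratios still. It holds new large subunits apart from small ones and is also needed to assemble them. Its csn51 arrays read 0.32, 0.32, 0.48 and 0.69 at 60 h, then 1.12, 1.09, 1.50 and 0.68 at 72 h and finally 1.81, 2.35, 2.39, 2.06 and 2.22 at 96 h. The group values were 0.45 ± 0.16 (adjusted p = 0.021), 1.11 ± 0.17 (adjusted p = 9.46e-07) and 2.17 ± 0.15 (adjusted p = 6.17e-16), and no 96 h array overlapped with a younger one. In csn53 larvae it had 0.08, 0.08, 0.14, -0.13 and 0.62 at 60 h (0.16 ± 0.15, adjusted p = 0.381), 0.44, 0.71, 1.03 and 0.60 at 72 h (0.69 ± 0.16, adjusted p = 0.00108) and 2.11, 1.73, 1.47, 1.05 and 1.86 at 96 h (1.65 ± 0.15, adjusted p = 3.52e-12). In csn4null larvae it was at -0.30 ± 0.19 at 60 h and -0.23 ± 0.16 at 72 h and rose at 96 h on each array (1.02, 0.76, 0.76 and 0.73, in the fit 0.82 ± 0.16, adjusted p = 0.000125). In csn5null larvae it passed at no age. The 96 h csn5null arrays had 0.22, 0.14, 0.15 and 0.26 (0.19 ± 0.16, adjusted p = 0.482), below every array of the other genotypes at that age.

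Ribosome biogenesis and RNA polymerase I genes were set beside these members, as a list of which 16 of 24 were measured. At 96 h 15 of the 16 were higher in csn51 larvae (median 1.05, all features -0.02) and 15 in csn53 larvae (median 0.56, all features -0.01). The count was 6 in csn4null larvae (median 0.44) and 0 in csn5null larvae (median -0.18). Of all features 27%, 21%, 15.1% and 9.47% were higher in these groups, in the same order. At 72 h 13 were lower in csn4null larvae (median -0.79, 12.4% of all features lower) and 10 in csn5null larvae (median -0.56, 9.44% of all features). At that age 3 were higher in csn51 larvae (median 0.17, 17.6% of all features higher). In csn53 larvae 0 were called (median 0.03, all features 15.8% higher and 14.2% lower). At 60 h 9 were lower in csn51 larvae (median -0.55, 22.9% of all features lower) and 10 in csn53 larvae (median -0.54, 24.9% of all features). The count was 1 in csn4null larvae (median -0.26, 8.08% of all features) and 0 in csn5null larvae (median -0.21, 3.39% of all features). Polr1A, the largest subunit of RNA polymerase I, was at 1.40 ± 0.14 in csn51 larvae at 96 h, and wcd, a nucleolar protein, at 1.88 ± 0.21.

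**Figure D3:**
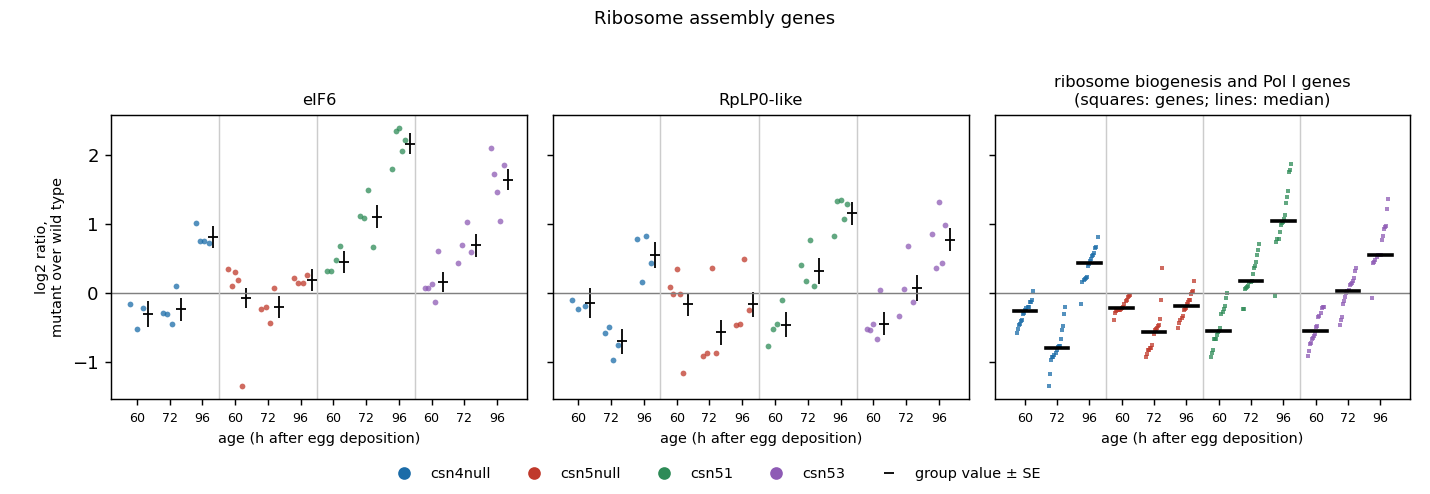
Log2 ratio of mutant over wild type for eIF6 and RpLP0-like on every array (points, with group value ± SE in black) and for 16 ribosome biogenesis and RNA polymerase I genes (group values, with their median as a line). In csn51 and csn53 larvae all panels are highest at 96 h, where the list medians are 1.05 and 0.56, while the csn5null list median at 96 h is -0.18.

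Among the factors that handle the initiator tRNA, eIF2Bdelta was lower in 7 of 12 groups, eIF2Balpha, eIF2Bepsilon and eIF2Bgamma in 3 groups each, and eIF2Bgamma was higher in 2. Over all features 11282 of 73661 feature and group pairs were lower and 11684 higher. eIF2B is the exchange factor that reloads eIF2 with GTP, and eIF2Bdelta is one of its regulatory subunits. eIF2Bdelta was below 0 in all 12 groups. It had -0.65, -0.70, -0.43 and -0.56 in csn51 larvae at 60 h (-0.58 ± 0.15, adjusted p = 0.00133), -0.32, -0.56, -0.27 and -0.47 at 72 h (-0.41 ± 0.15, adjusted p = 0.0332) and -0.01, -0.27, -0.48, -0.97 and -0.51 at 96 h (-0.45 ± 0.13, adjusted p = 0.00442). Each of these 13 arrays was below 0. In csn53 larvae at 60 h it had -0.41, -0.55, -0.56, -0.70 and -0.48 (-0.54 ± 0.13, adjusted p = 0.000852), also all below 0. In csn4null larvae it had -0.52, -1.18 and 0.16 at 60 h (-0.52 ± 0.17, adjusted p = 0.0329), and was at -0.15 without replicate 2 (adjusted p = 0.73). At 96 h it had -0.57, -0.65, -0.25 and -0.21 there (-0.42 ± 0.15, adjusted p = 0.0276). In csn5null larvae at 72 h it had -0.43, -0.46, -1.06 and -0.28 (-0.56 ± 0.15, adjusted p = 0.00717), and without replicate 3 of both ages it missed the threshold (-0.39, adjusted p = 0.0922).

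eIF2Bepsilon, the catalytic subunit, was also below 0 in all 12 groups and lower at 60 h in csn4null (-0.24 ± 0.07, adjusted p = 0.0147), csn51 (-0.43 ± 0.06, adjusted p = 2.57e-07) and csn53 larvae (-0.52 ± 0.05, adjusted p = 3.34e-10). Its 60 h arrays had -0.48, -0.47, -0.35 and -0.41 in csn51 larvae and -0.43, -0.54, -0.52, -0.67 and -0.40 in csn53 larvae. None of these 9 arrays overlapped with the csn5null arrays of that age, at -0.09, -0.13, 0.04, 0.05 and -0.29. eIF2Balpha, a regulatory subunit, was lower in 3 groups, csn51 at 60 h (-0.38 ± 0.13), csn53 at 60 h (-0.30 ± 0.12) and csn5null at 72 h, where it had -0.15, -0.15, -1.75 and -0.05 (-0.53 ± 0.13, adjusted p = 0.00394). The last call came down to replicate 3, with -0.11 without replicate 3 (adjusted p = 0.392).

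eIF2Bgamma, which works with eIF2Bepsilon, was higher late in 2 genotypes and lower in the nulls. It had 0.27, 0.55, 0.40, 0.74 and 0.52 in csn51 larvae at 96 h (0.48 ± 0.06, adjusted p = 1.04e-09) and 0.40, 0.34, 0.36, 0.47 and 0.65 in csn53 larvae at 96 h (0.43 ± 0.06, adjusted p = 2.87e-08). All 10 arrays were above 0. It was lower in csn4null larvae at 72 h (-0.45, -0.28, -0.27 and -0.12, in the fit -0.28 ± 0.06, adjusted p = 0.000674) and in csn5null larvae at 72 h (-0.18 ± 0.06, adjusted p = 0.0402) and 96 h (-0.22 ± 0.06, adjusted p = 0.0103). Its 2 array entries were both lower in csn4null larvae at 72 h, but each csn5null call rested on 1 entry. One entry was at -0.26 at 72 h (adjusted p = 0.00546) and -0.07 at 96 h (adjusted p = 0.528), the other one at -0.09 at 72 h (adjusted p = 0.409) and -0.36 at 96 h (adjusted p = 0.000259). In a fit of the 96 h csn5null arrays alone the adjusted p was 0.326.

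eIF5, which makes eIF2 hydrolyse its GTP at the start codon, fell in csn53 larvae at 60 h (-0.40 ± 0.13, adjusted p = 0.0104) and rose in the 96 h larvae of csn51 (0.37 ± 0.13, adjusted p = 0.0166) and of csn53 (0.33 ± 0.13, adjusted p = 0.0421). eIF2A and eIF2D can bring tRNAs to the small subunit without eIF2. eIF2A rose in csn51 larvae at 72 h (0.34 ± 0.10, adjusted p = 0.0069) and 96 h (0.28 ± 0.09, adjusted p = 0.00707) and fell in csn4null larvae at 72 h (-0.28 ± 0.10, adjusted p = 0.037). It was the 1 member called in csn5null larvae at 60 h, with -0.25, -0.32, -0.17, -0.48 and -0.26 (-0.30 ± 0.09, adjusted p = 0.0288), below 0 on all 5 arrays. eIF2D rose in csn51 larvae at 72 h (0.42 ± 0.16, adjusted p = 0.031) and 96 h (0.57 ± 0.14, adjusted p = 0.000521) and in csn53 larvae at 96 h (0.33 ± 0.14, adjusted p = 0.0496). In csn5null larvae at 72 h it had -0.13, -0.16, -2.01 and -0.01 (-0.58 ± 0.15, adjusted p = 0.00709) and was at -0.10 without replicate 3 (adjusted p = 0.553).

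Of eIF3, the large complex that binds the small subunit and recruits mRNA, 9 genes were measured. At 96 h 6 of the 9 rose in csn4null larvae (15.1% of all features were higher), 6 in csn51 larvae (all features 27%) and 6 in csn53 larvae (all features 21%), and none fell. eIF3e, eIF3h, eIF3i, eIF3k and eIF3m rose in each of these groups, eIF3g1 in csn4null larvae alone among them and eIF3d1 in csn51 and csn53 larvae. eIF3d2 and eIF3j passed in none of them. In csn5null larvae at 96 h eIF3d1 rose (0.24, 0.03, 0.19 and 0.47, in the fit 0.23 ± 0.08, adjusted p = 0.0406; with these arrays alone adjusted p = 0.263), and eIF3k was at -0.04 ± 0.11.

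eIF3k, a subunit at the edge of the complex, was called most often of the 9, higher in 7 groups and lower in 1. In csn4null larvae it had 0.24, 0.31 and 0.27 at 60 h (0.27 ± 0.13, adjusted p = 0.149), 0.35, 0.42, 0.67 and 0.77 at 72 h (0.55 ± 0.11, adjusted p = 0.000179) and 0.70, 0.63, 0.44 and 0.67 at 96 h (0.61 ± 0.11, adjusted p = 3.36e-05). All 11 csn4null arrays were above 0. In csn51 larvae it had 0.40, 0.28, 0.22 and 0.28 at 60 h (0.30 ± 0.11, adjusted p = 0.0271), 0.78, 0.83, 0.50 and 0.26 at 72 h (0.60 ± 0.11, adjusted p = 3.99e-05) and 0.83, 0.48, 0.72, 0.25 and 0.54 at 96 h (0.57 ± 0.10, adjusted p = 6.43e-06), again all above 0. In csn53 larvae it was at 0.40 ± 0.11 (adjusted p = 0.00573) at 72 h and 0.39 ± 0.10 (adjusted p = 0.00145) at 96 h. In csn5null larvae at 72 h it had -0.21, -0.30, -0.95 and 0.19 (-0.32 ± 0.11, adjusted p = 0.0409), a call lost in 3 of 4 fits without 1 array.

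eIF3h and eIF3m, neighbours in the complex, rose in 6 groups each. eIF3h was highest in csn51 larvae at 96 h (0.67, 0.54, 0.55, 0.09 and 0.47, in the fit 0.47 ± 0.07, adjusted p = 1.75e-07), with replicate 4 well under the rest. eIF3m was highest in csn51 larvae at 72 h (0.67, 0.70, 0.45 and 0.23, in the fit 0.53 ± 0.08, adjusted p = 1.38e-06). eIF3e rose in 4 groups and was highest in csn51 larvae at 96 h (0.91, 0.59, 0.70, -0.03 and 0.48, in the fit 0.53 ± 0.10, adjusted p = 1.06e-05), where replicate 4 was the 1 array below 0. eIF3d1 rose in 5 groups and fell in csn53 larvae at 60 h (-0.17, -0.18, -0.38, -0.35 and -0.11, in the fit -0.24 ± 0.07, adjusted p = 0.00565) and csn5null larvae at 72 h (-0.24 ± 0.08, adjusted p = 0.0357). Replicate 4 gave the lowest value of eIF3d1, eIF3e, eIF3g1, eIF3h, eIF3i, eIF3k and eIF3m in csn51 larvae at 96 h, and so did replicate 4 in csn53 larvae at 96 h. Their median correlations with their groups were 0.738 and 0.785.

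eIF3j, a loosely bound subunit, was lower in 6 groups and higher in none. In csn51 larvae it had -0.47, -0.23, -0.25 and -0.29 at 60 h (-0.31 ± 0.07, adjusted p = 0.000383) and -0.33, -0.53, -0.36 and -0.42 at 72 h (-0.41 ± 0.07, adjusted p = 1.25e-05). In csn53 larvae it had -0.34, -0.36, -0.40, -0.25 and -0.11 at 60 h (-0.30 ± 0.06, adjusted p = 0.000156) and -0.52, -0.20, -0.12 and -0.19 at 72 h (-0.26 ± 0.07, adjusted p = 0.00464). All 17 of these arrays were below 0. It was lower at 72 h in csn4null (-0.29 ± 0.07, adjusted p = 0.00209) and csn5null larvae (-0.27 ± 0.07, adjusted p = 0.00649) too, and in no group at 96 h. eIF3d2, a relative of eIF3d1, fell in csn53 larvae at 60 h (-0.41, -0.48, -0.35, -0.60 and -0.06, in the fit -0.39 ± 0.09, adjusted p = 0.000491).

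**Figure D4:**
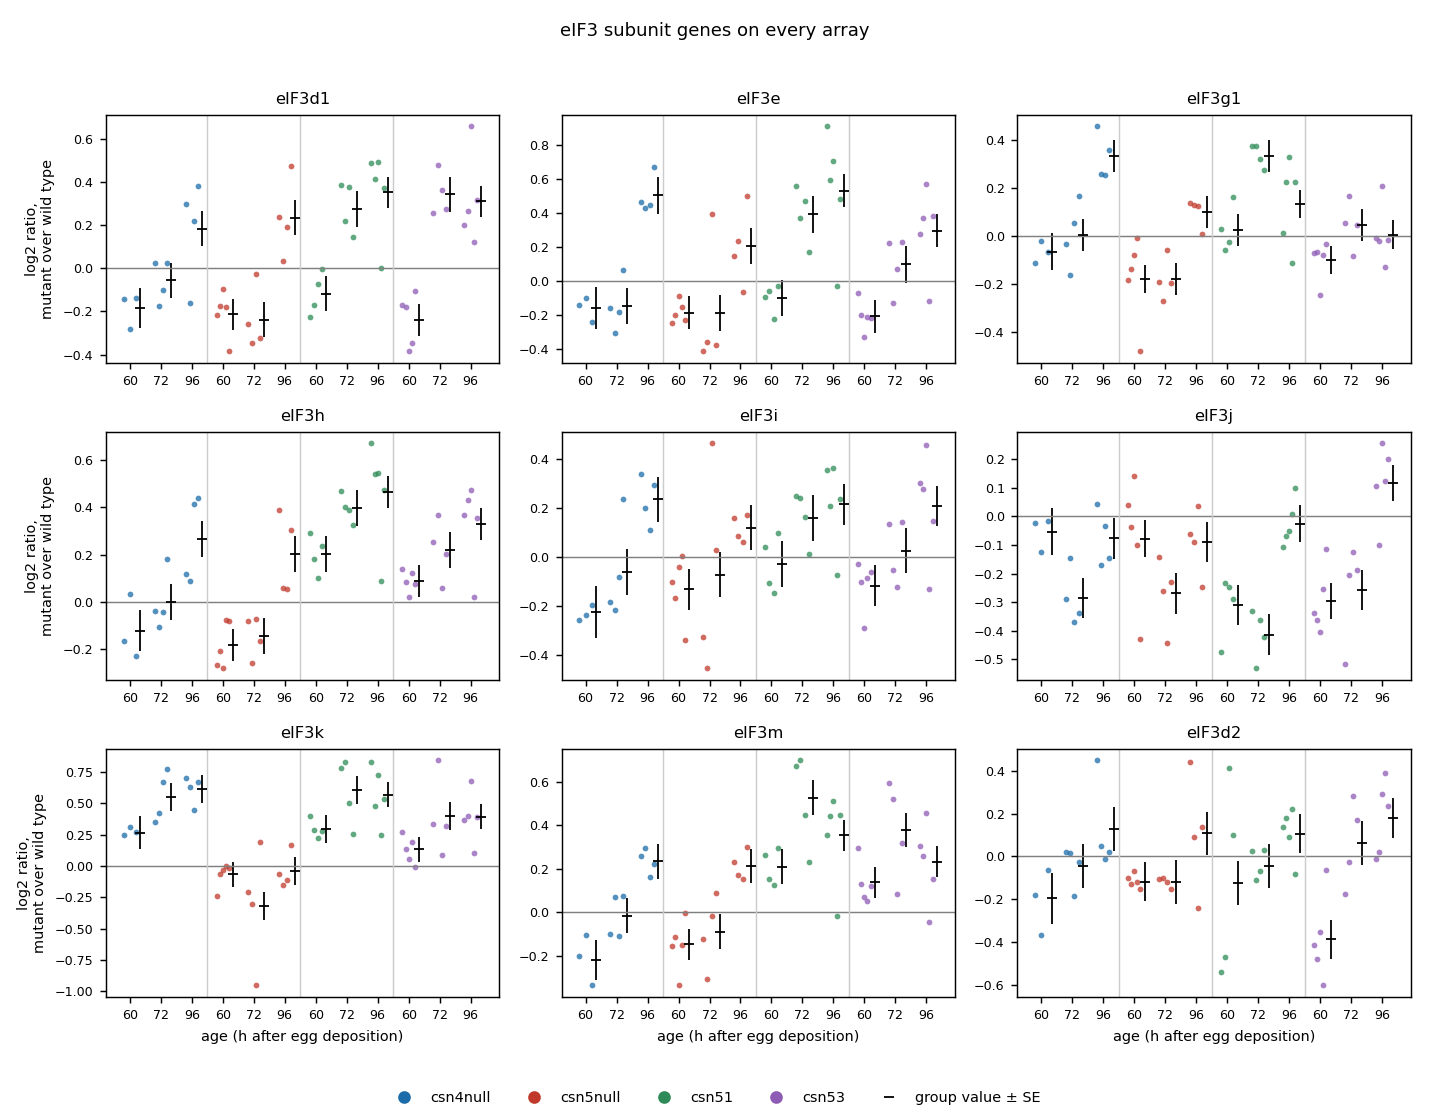
Log2 ratio of mutant over wild type for 9 eIF3 subunit genes, 1 panel each with its own scale. Coloured points are single arrays and black marks are the group value ± SE. eIF3k is above 0 on every csn4null and csn51 array, and eIF3j is below 0 on every csn51 and csn53 array at 60 and 72 h.

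Of the factors that act at the cap, eIF4A, the helicase that unwinds the leader of the mRNA, rose in 7 groups and fell in none. It had 0.54, 0.32, 0.30 and 0.42 in csn51 larvae at 60 h (0.39 ± 0.06, adjusted p = 1.96e-06), 0.47, 0.55, 0.22 and 0.34 at 72 h (0.41 ± 0.06, adjusted p = 1.6e-06) and 0.45, 0.43, 0.47, 0.31 and 0.43 at 96 h (0.43 ± 0.06, adjusted p = 2.09e-08). All 13 csn51 arrays were above 0, at each age by like amounts. In csn53 larvae it had 0.36, 0.32, 0.33, 0.37 and 0.27 at 60 h (0.34 ± 0.06, adjusted p = 3.2e-06), 0.22, 0.06, -0.03 and 0.14 at 72 h (0.10 ± 0.06, adjusted p = 0.258) and 0.26, 0.31, 0.29, 0.26 and 0.33 at 96 h (0.30 ± 0.06, adjusted p = 3.24e-05). In csn4null (0.32 ± 0.06, adjusted p = 9.76e-05) and csn5null larvae (0.25 ± 0.06, adjusted p = 0.00336) it passed at 96 h alone, and in a fit of the 96 h csn5null arrays by themselves the adjusted p was 0.243. Its 3 array entries were above 0 in each of the 7 groups.

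eIF4G1, the scaffold that ties eIF4E to eIF4A, fell in csn51 larvae at 60 h (-0.35 ± 0.14, adjusted p = 0.0331) and csn5null larvae at 72 h (-0.39 ± 0.14, adjusted p = 0.0445) and rose in csn51 larvae at 96 h (0.29 ± 0.12, adjusted p = 0.0421) and csn53 larvae at 72 h (0.47 ± 0.14, adjusted p = 0.00823). Each of these 4 calls was lost without at least 1 array of its group. eIF4H2, named for a helper of eIF4A, was called once, in csn53 larvae at 72 h (1.08 ± 0.40, adjusted p = 0.0373), where it had -0.19, 4.23 and -0.60 on the 3 arrays with a value. The call stood on 1 array, with -0.39 without replicate 2 (adjusted p = 0.139).

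The cap-binding proteins measured were 3, and they moved apart. eIF4E1, the main cap-binding protein of growing fly tissue, was below 0 in all 12 groups. It fell in csn51 larvae at 60 h (-0.52, -0.45, -0.37 and -0.47, in the fit -0.45 ± 0.10, adjusted p = 0.000225), csn53 larvae at 60 h (-0.38, -0.44, -0.48, -0.58 and -0.34, in the fit -0.44 ± 0.09, adjusted p = 6.05e-05) and csn4null larvae at 96 h (-0.33, -0.24, -0.37 and -0.54, in the fit -0.37 ± 0.10, adjusted p = 0.00343). eIF4EHP, which binds the cap without eIF4G and represses translation, fell at 60 h in csn51 (-0.97, -0.43, -0.44 and -0.40, in the fit -0.56 ± 0.13, adjusted p = 0.000483) and csn53 larvae (-0.61 ± 0.12, adjusted p = 3.37e-05). At 96 h it was higher in csn51 larvae (0.41, 0.25, 0.29, 0.30 and 0.40, in the fit 0.32 ± 0.12, adjusted p = 0.0177), with no array overlapping those of 60 h.

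eIF4E3, an eIF4E relative known in the fly for its work in the male germ line, had the largest group value of the 30 genes. In csn4null larvae it had 3.23 and 4.05 at 60 h on the 2 arrays with a value, 2.55, 1.34, 2.52 and 1.96 at 72 h, and 0.98, 1.47, 0.92 and 0.70 at 96 h. It was above 0 on each of these arrays, and the excess was smaller at each later age, with 3.47 ± 0.42 (adjusted p = 1.79e-07), 2.09 ± 0.29 (adjusted p = 6.17e-07) and 1.02 ± 0.29 (adjusted p = 0.00642). With 2 values at 60 h, leaving either out ended the test. Both came from arrays with the mutant in Cy3, so eIF4E3 had no dye reversal in this group. In a fit of each age alone the adjusted p was 0.0519, 0.000673 and 0.00273. In csn53 larvae it had 2.88, 1.88, 1.60, 1.71 and 0.26 at 60 h (1.70 ± 0.26, adjusted p = 1.35e-06), 0.73, 1.28, 0.69 and 0.77 at 72 h (0.87 ± 0.29, adjusted p = 0.0217) and 0.07, 0.87, 0.35, 0.22 and 0.63 at 96 h (0.46 ± 0.26, adjusted p = 0.166). Each csn53 array was above 0, although the 72 h call was lost in 3 of 4 fits without 1 array.

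In csn51 larvae eIF4E3 had 1.65 and 0.87 at 60 h on the 2 of 4 arrays with a value (1.26 ± 0.41, adjusted p = 0.0113) and 1.32, 0.95, 1.42 and 0.16 at 72 h (1.05 ± 0.30, adjusted p = 0.00514). At 96 h it had -0.15, 0.59, -1.90 and -1.46 on 4 of 5 arrays (-0.73 ± 0.29, adjusted p = 0.033). These disagreed in sign, and the value was -0.38 without replicate 4 (adjusted p = 0.333). In csn5null larvae it was at -0.27 ± 0.26, -0.10 ± 0.29 and -0.68 ± 0.29 at 60, 72 and 96 h and passed at none of them, with 11 of 13 arrays below 0.

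Germ line markers were set beside eIF4E3. Of 18 listed testis markers the array measured 2, mia, a transcription factor subunit of spermatocytes, and twe, a meiotic phosphatase. In csn4null larvae at 60 h mia was at -0.27 (adjusted p = 0.139) and twe at 0.39 (adjusted p = 0.223). At 72 h mia fell (-0.42 ± 0.11, adjusted p = 0.00307), and at 96 h twe did (-0.59 ± 0.15, adjusted p = 0.00239). The log2 ratios of both markers were summed on each array, and a marker without a value there was left out. This sum lay between -0.24 and 0.26 on the csn4null arrays at 60 h, between -1.11 and 0.15 at 72 h and between -1.02 and -0.61 at 96 h. It lay between -0.60 and 0.24 in csn53 larvae and between -0.04 and 0.28 in csn51 larvae at 60 h. Of 6 measured markers of the germ line at large, 0 of 5 tested were called in csn4null larvae at 60 h, and ovo (0.54) and krimp (0.40) were higher at 72 h. In csn53 larvae piwi, a factor of transposon silencing in the gonad, was higher at 60 h (0.36), 72 h (0.60) and 96 h (0.25), and aub, its relative, at 60 h (0.63) and 96 h (1.17). At 72 h krimp was higher (0.81) and nanos lower (-0.25) in csn53 larvae. In csn51 larvae none of the 6 passed at 60 or 72 h, and at 96 h piwi was higher (0.33) and nanos lower (-0.22) among 3 tested. None of these markers of the germ line at large passed in csn5null larvae or in csn4null larvae at 96 h. The log2 ratios of the germ line markers were summed in the same way. Their sum lay between -0.24 and 1.25 in csn4null and between 0.35 and 2.07 in csn53 larvae at 60 h. What part germ line tissue has in the eIF4E3 values was not tested.

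**Figure D5:**
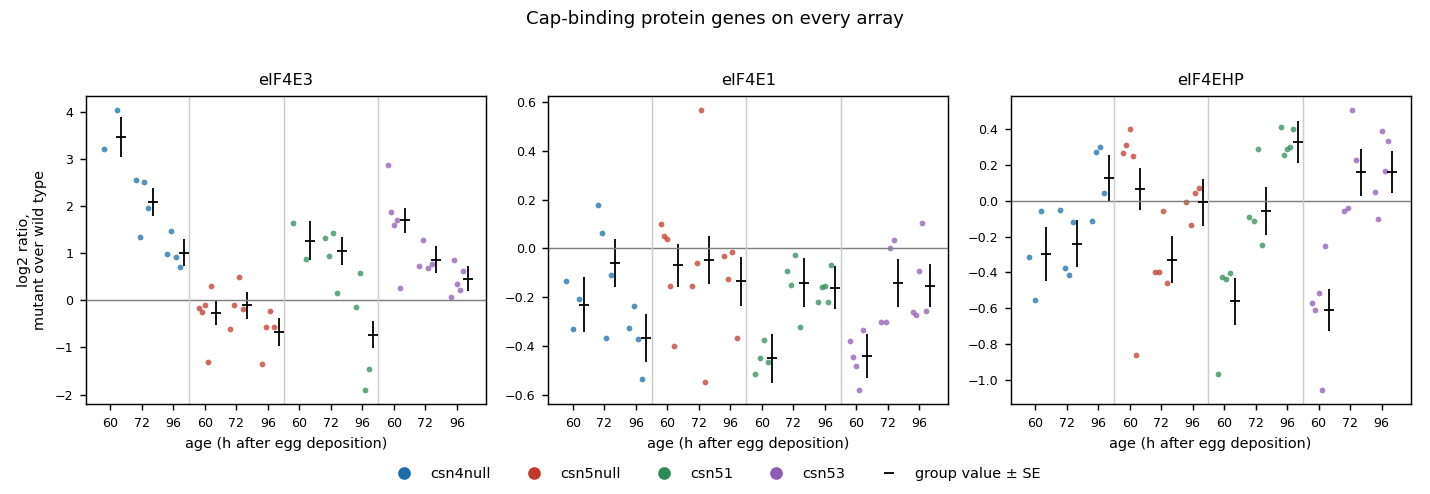
Log2 ratio of mutant over wild type for 3 cap-binding protein genes, 1 panel each with its own scale. Coloured points are single arrays and black marks are the group value ± SE. eIF4E3 lies above 0 on every csn4null and csn53 array, with group values of 3.47 at 60 h and 1.02 at 96 h in csn4null larvae, while the 12 eIF4E1 group values all lie below 0.

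The 1 elongation factor gene, eEF1delta, encodes a subunit of the exchange factor that recharges eEF1A with GTP. It was below 0 in all 12 groups and lower in 7. In csn51 larvae it had -1.33, -1.14, -0.71 and -0.97 at 60 h (-1.04 ± 0.13, adjusted p = 4.95e-08), -0.44, -0.45, -0.13 and -0.53 at 72 h (-0.44 ± 0.13, adjusted p = 0.00982) and -0.27, -0.20, -0.30, 0.01 and -0.01 at 96 h (-0.17 ± 0.12, adjusted p = 0.225). In csn53 larvae its arrays were at -1.22 to -0.51 at 60 h (-0.94 ± 0.12, adjusted p = 3e-08), and it was at -0.12 ± 0.13 and -0.22 ± 0.12 at 72 and 96 h. All 9 arrays of csn51 and csn53 larvae at 60 h were below 0. In csn4null larvae it was at -0.43 ± 0.15 (adjusted p = 0.0479), -0.27 ± 0.13 (adjusted p = 0.149) and -0.45 ± 0.13 (adjusted p = 0.0079) at 60, 72 and 96 h, and the 60 h call was lost whichever array was left out. In csn5null larvae it was lower at 72 h (-0.43, -0.55 and -0.55 on the 3 arrays with a value, in the fit -0.48 ± 0.15, adjusted p = 0.0266) and 96 h (-1.07, -0.88, 0.16 and -0.58, in the fit -0.59 ± 0.13, adjusted p = 0.00125). Replicate 3 was the 1 array above 0 there, and in a fit of these 96 h arrays alone the adjusted p was 0.142.

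The trends with age were tested as 96 h minus 60 h. In csn4null larvae 7 and 1 members were higher and lower at 96 h (all features 5.74% and 6.7%), in csn5null larvae 5 and 0 (all features 3.7% and 3.67%), in csn51 larvae 13 and 1 (all features 17.2% and 20.7%) and in csn53 larvae 14 and 1 (all features 15.4% and 15.9%). eIF6 differed by 1.72 ± 0.22 in csn51 (adjusted p = 5.72e-08), 1.48 ± 0.21 in csn53 (adjusted p = 4.55e-07) and 1.12 ± 0.25 in csn4null larvae (adjusted p = 0.0021). RpLP0-like differed by 1.61 ± 0.25 in csn51 (adjusted p = 1.61e-06) and 1.21 ± 0.23 in csn53 larvae (adjusted p = 7.36e-05). The ratios of both genes were thus higher in the older larvae. eEF1delta was less reduced at 96 h, by 0.86 ± 0.18 in csn51 (adjusted p = 0.000165) and 0.71 ± 0.17 in csn53 larvae (adjusted p = 0.00102). The member that was lower at 96 h in each of 3 genotypes was eIF4E3, with -2.45 ± 0.51 in csn4null (adjusted p = 0.00119), -1.99 ± 0.51 in csn51 (adjusted p = 0.00187) and -1.24 ± 0.37 in csn53 larvae (adjusted p = 0.0089). In csn5null larvae the 5 were eIF3d1 (0.45 ± 0.11), eIF3h (0.38 ± 0.10), eIF3m (0.36 ± 0.11), eIF4A (0.31 ± 0.08) and eIF3g1 (0.28 ± 0.09), and 0 passed in a fit of those arrays alone.

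Few members differed between the nulls. In csn4null minus csn5null at 60 h, eIF4E3 (3.74 ± 0.50, adjusted p = 1.63e-06) was the 1 member higher in csn4null larvae and none was lower (all features 5.73% and 4.19%). Its csn4null value there rests on 2 arrays of the same dye orientation. At 72 h eIF4E3 (2.20 ± 0.41, adjusted p = 0.000279), eIF3k (0.87 ± 0.16, adjusted p = 0.000134) and RpS10a (0.52 ± 0.14, adjusted p = 0.0121) were higher in csn4null larvae and none was lower (all features 6.08% and 4.51%). At 96 h eIF4E3 (1.69 ± 0.41, adjusted p = 0.00939) and eIF3k (0.65 ± 0.16, adjusted p = 0.00832) were higher and none lower (all features 1.76% and 3.15%). The 8 csn4null arrays of these 2 ages had eIF3k between 0.35 and 0.77, and the csn5null arrays between -0.95 and 0.19.

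The genotypes csn51 and csn53 differed in 1 member at 1 age. In csn51 minus csn53 at 72 h eIF4A was higher in csn51 larvae (0.31 ± 0.09, adjusted p = 0.0355, all features 1.34% and 2.3%), and not in a fit without the dye term. None passed at 60 h (all features 0.0808% and 0.113%) or at 96 h (all features 1.97% and 2.11%). The differences at 96 h were 0.52 ± 0.21, adjusted p = 0.168, for eIF6, 0.38 ± 0.23, adjusted p = 0.459, for RpLP0-like and -1.19 ± 0.39, adjusted p = 0.0806, for eIF4E3.

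Between csn5null and the mean of csn51 and csn53 at 60 h, 8 and 4 members were higher and lower in csn5null larvae (all features 21.4% and 22.4%). eEF1delta (0.76 ± 0.15, adjusted p = 6.51e-05), eIF4EHP (0.65 ± 0.15, adjusted p = 0.000367) and eIF2Bepsilon (0.38 ± 0.07, adjusted p = 1.35e-05) were higher, and eIF4E3 (-1.75 ± 0.36, adjusted p = 0.000128), eIF4A (-0.42 ± 0.07, adjusted p = 4.63e-06) and eIF3h (-0.33 ± 0.08, adjusted p = 0.00146) lower. At 72 h the counts were 0 and 16 (all features 15.2% and 16.3%), led by eIF3k (-0.82 ± 0.14, adjusted p = 1.15e-05), eIF3m (-0.54 ± 0.10, adjusted p = 3.44e-05) and eIF3d1 (-0.55 ± 0.10, adjusted p = 4.13e-05). Of the genes with a ribosomal protein symbol, RpLP0-like, RpL17, RpS10a, RpS12 and RpS28b were among the 16. Without replicate 3 of csn5null at 72 and 96 h, 2 genes with such a symbol were lower. In a fit of the arrays of these groups alone 1 was. At 96 h the counts were 0 and 6 (all features 16.1% and 14.5%), led by eIF2Bgamma (-0.68 ± 0.07, adjusted p = 3.28e-09), eIF6 (-1.71 ± 0.19, adjusted p = 8.22e-09) and RpLP0-like (-1.13 ± 0.22, adjusted p = 9.28e-05). The differences use the same arrays as the comparisons with wild type and are no further support for them.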

How the data were processed

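Larval RNA was labelled with Cy3 and Cy5 by the aminoallyl method and hybridised in pairs of mutant and wild type, per the labels. The authors deposited 1 log ratio per entry and array, taken here as log2; base and direction are not stated, and background correction, normalization and filters are not given in the sources used here. A natural logarithm would scale all log2 values by one factor. Every sign was turned, since the deposited values put CSN4 above 0 in csn4null and CSN5 above 0 in csn5null larvae. The number of arrays limits the precision.

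Of 6621 entries, 5072 had 1 symbol, of which 4993 were matched to RefSeq names (eIF4A had 3 entries and eIF2Bgamma 2). The entries of a gene were averaged, control entries (32) left out, and features tested with values on at least 2 arrays per group. limma 3.58.1 (R 4.3.3) fitted 12 group coefficients and 1 dye coefficient over all 51 arrays, so a gene has one spread, which can carry that of other groups. P-values were adjusted by Benjamini-Hochberg across every feature tested in a comparison. The fit was tested on simulated data, and figures drawn with matplotlib 3.10.9. Alternatives were no dye term, each group's arrays alone without dye term, median centring, scaling, features complete on all arrays, single entries, array weights, a replicate block, each array left out, and csn5null arrays that stand apart left out.

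The members, lists and alternatives were chosen with earlier results of these data known. Genes are named in full where they lead a group or difference by adjusted p or are called most often in their class; others by range and count.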

Additional observations from a re-analysis of the deposited data

Results flagged for a closer look

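On 5 of 80 sets of 4 or 5 arrays, each a gene or class median in 1 group, 1 array stood apart from the others. The threshold is set for 1 in 20 independent sets, but these sets share arrays, so the count cannot be set against it. RpLP0-like had 0.36 on csn5null 72 h replicate 3, against -0.86 or lower on the others, and RpS28b had -1.19 on the same array, against -0.12 or higher. RpS10a had -1.11 on csn5null 72 h replicate 4, against -0.44 or higher. eIF4A had 0.31 on csn51 96 h replicate 4, against 0.43 or higher, and eIF4E3 had 1.28 on csn53 72 h replicate 2, against 0.77 or lower.

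The other results given here are differences between genotypes or ages that passed the test of the difference itself. In csn4null minus csn5null these were eIF4E3 at 60 h (3.74), at 72 h (2.20) and at 96 h (1.69), eIF3k at 72 h (0.87) and 96 h (0.65), and RpS10a at 72 h (0.52). In csn51 minus csn53 it was eIF4A at 72 h (0.31). In csn5null minus the mean of csn51 and csn53 at 60 h they were eEF1delta (0.76), eIF4EHP (0.65), eIF2Bepsilon (0.38), eIF3h (-0.33), eIF4A (-0.42) and eIF4E3 (-1.75). At 72 h they were eIF3m (-0.54), eIF3d1 (-0.55) and eIF3k (-0.82), and at 96 h eIF2Bgamma (-0.68), RpLP0-like (-1.13) and eIF6 (-1.71).

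In 96 h minus 60 h they were eIF6 (1.12), eIF3e (0.66), eIF3g1 (0.40) and eIF4E3 (-2.45) in csn4null larvae. In csn5null larvae they were eIF3d1 (0.45), eIF3h (0.38) and eIF4A (0.31). In csn51 larvae they were eIF6 (1.72), RpLP0-like (1.61), eIF2Bepsilon (0.42) and eIF4E3 (-1.99), and in csn53 larvae eIF6 (1.48), eIF3d1 (0.55), eIF2Bepsilon (0.50) and eIF4E3 (-1.24).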

How the results depend on the processing

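Over the 12 groups the count of calls was 128 in the reported fit, 124 without the dye term, 130 after centring, 129 by single entries, 117 after scaling (23 lost and 12 gained) and 94 in fits of each group's arrays alone (42 lost and 8 gained). It was 196 with array weights (0.0813 to 5.41), which turned 1 call, eIF4H2 in csn53 larvae at 72 h (-0.13). Leaving out the 2 or 3 csn5null arrays that stand apart gave 144 or 155. A replicate block of same-numbered arrays within an age gave 128, and all 128 calls were kept. Same-numbered arrays correlated between -0.564 and 0.619 in their residuals, in no pair of genotypes all above 0.1. An extract shared by a whole group drops out of these residuals, so they cannot show whether arrays share extracts. The causes of these changes were not tested.

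Counts of members that moved by over 1.5 times are given here beside the reported one. With each group's arrays alone they were 0 in csn4null 60 h (reported 4), csn5null 72 h (14) and csn5null 96 h (6), 3 in csn53 72 h (9), 1 in csn4null minus csn5null 72 h (3), 0 in csn51 minus csn53 72 h (1), 8 in csn5null minus the mean 72 h (16), 0 in csn5null 96 h minus 60 h (5) and 11 for ribosomal genes over all groups (17). With array weights they were 13, 14 and 13 in csn4null 60 h, csn5null 60 h (reported 1) and csn5null 96 h, 23 in csn53 60 h (14), 13, 5 and 5 in csn4null minus csn5null at 60 (1), 72 and 96 h (2), 11 and 6 in csn51 minus csn53 at 72 and 96 h (0), 20 and 10 in csn5null minus the mean at 60 (12) and 96 h (6), 14 and 12 in 96 h minus 60 h of csn4null (8) and csn5null, and 28 for ribosomal genes. The translation factor genes called over the 12 groups were 168 with array weights (111). After scaling they were 7 in csn5null 60 h, 8 in csn51 60 h (15), 11 in csn51 96 h (19), 6 in csn4null minus csn5null 60 h and 9 in csn51 96 h minus 60 h (14). Centring gave 2 in csn5null 60 h. With complete features they were 2 in csn4null 60 h and csn5null 60 h, and 0 and 1 in csn4null minus csn5null at 60 and 96 h, where eIF4E3 is not among the 26 members left. In csn51 minus csn53 72 h no dye term and single entries gave 0. Without replicate 3 of csn5null at 72 and 96 h they were 2 in csn5null 60 h, 9 in csn5null 72 h, 13 in csn5null 96 h, 2 in csn4null minus csn5null 60 h and 9 in csn5null 96 h minus 60 h. Without these and replicate 5 at 60 h they were 7 in csn4null 60 h, 4 in csn5null 60 h, 13 in csn5null 96 h, 6 and 4 in csn4null minus csn5null at 60 and 96 h, 3 and 2 in csn51 minus csn53 at 72 and 96 h, 19 and 10 in csn5null minus the mean at 60 and 96 h and 9 in csn5null 96 h minus 60 h. Of the class medians, which have no test, the ribosomal one in csn53 96 h moved by more than the SD over arrays to 0.18 with complete features (0.13). The ribosomal median moved by over 1.5 times, within that SD, in csn5null 96 h (-0.15) to -0.25 without replicate 3 and -0.09 with complete features, in csn4null 72 h (-0.09) to -0.15 with complete features, and in csn5null 60 h (-0.06) to -0.11 after scaling and -0.09 without replicate 5. The translation factor median in csn5null 60 h (-0.11) moved to -0.06 without replicate 5, and the median of translation factor genes, csn51 60 h, was -0.026 by single entries (-0.10).

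Leaving out 1 array gave 1 to 2 members in csn4null 60 h, 0 to 3 in csn5null 60 h, 9 in csn5null 72 h whichever array it was, 1 to 9 in csn5null 96 h, 9 to 14 in csn51 60 h, 9 to 12 in csn51 72 h, 4 to 8 in csn53 72 h and 7 to 11 in csn53 96 h. It gave 0 to 5 and 1 to 3 in csn4null minus csn5null at 60 and 96 h, 0 to 3 and 0 to 1 in csn51 minus csn53 at 72 and 96 h, and 3 to 8 and 1 to 7 in 96 h minus 60 h of csn4null and csn5null.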

Other observations

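Other genes that serve translation were lower in young csn51 and csn53 larvae. Cytoplasmic aminoacyl-tRNA synthetases load tRNAs with amino acids, and 15 were measured. At 60 h 14 were lower in csn51 larvae (median -0.68, 22.9% of all features lower) and 14 in csn53 larvae (median -0.65, 24.9% of all features). GlyRS was at -0.79 ± 0.08 in csn51 and -0.82 ± 0.08 in csn53 larvae. In csn4null larvae at 60 h 9 of 14 tested were lower (median -0.35, all features 8.08%), and in csn5null larvae 1 (median -0.15, all features 3.39%). At 96 h 3 were higher and 5 lower in csn4null larvae (all features 15.1% and 16.3%) and 0 and 1 in csn5null larvae (all features 9.47% and 7.79%). The counts were 2 and 2 of 14 tested in csn51 larvae (all features 27% and 28.1%) and 3 and 2 in csn53 larvae (all features 21% and 19.5%). The medians were then -0.02 in csn4null, 0.09 in csn5null, 0.04 in csn51 and 0.07 in csn53 larvae. AsnRS was then still lower in csn4null (-0.55 ± 0.12), csn51 (-0.65 ± 0.11) and csn53 larvae (-0.59 ± 0.11), while IleRS was higher in csn4null (0.44 ± 0.12), csn51 (0.45 ± 0.11) and csn53 larvae (0.42 ± 0.11). eRF1, the factor that ends translation at stop codons, was lower in csn51 (-0.27 ± 0.06) and csn53 larvae (-0.32 ± 0.06) at 60 h and higher at 96 h (0.19 ± 0.06 in csn51 and 0.20 ± 0.06 in csn53).

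Of 11 measured genes of TOR signalling and translational control, crc, the fly counterpart of the stress factor ATF4, was higher in 10 of the 12 groups, from 0.49 in csn5null larvae at 96 h up to 0.87 in csn53 larvae at 60 h, and did not pass in csn5null larvae at 60 and 72 h. PEK, a kinase of eIF2, was lower in csn51 larvae at each age (-0.50, -0.44 and -0.67), and at 60 and 96 h in csn53 (-0.59 and -0.36) and csn4null larvae (-0.56 and -0.31). Tsc1, an inhibitor of TOR, was lower in all csn51 and csn53 groups, from -0.57 in csn51 larvae at 96 h to -0.25 in csn53 larvae at 96 h. The gene of TOR, mTor, was lower in csn51 larvae at 60 h (-0.43) and 96 h (-0.26) and in csn53 larvae at 60 h (-0.48). Of the 11 genes, 4 were higher and 3 lower at 60 h in csn51 larvae (all features 24.1% and 22.9%). In csn53 larvae of that age the counts were 4 and 3 (all features 25.3% and 24.9%). At 96 h they were 2 and 5 in csn51 larvae (all features 27% and 28.1%) and 2 and 4 in csn53 larvae (all features 21% and 19.5%). Besides crc, the genes higher at 60 h in csn51 and csn53 larvae were Akt (0.32 and 0.26), Paip2 (1.90 and 1.86) and Pdcd4 (0.33 and 0.42). What these values mean for TOR signalling was not tested.

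Some array entries list a gene of this kind together with a neighbour, so that the gene behind the signal cannot be told apart. The entry of RpS27A and Ip259 was higher in csn51 larvae at 60 h (0.47 ± 0.10), 72 h (0.78 ± 0.10) and 96 h (0.75 ± 0.09), in csn53 larvae at 60 h (0.34 ± 0.09) and 96 h (0.50 ± 0.09) and in csn4null larvae at 96 h (0.80 ± 0.10). In csn5null larvae it was lower at 72 h (-0.51 ± 0.10) and higher at 96 h (0.38 ± 0.10). The entry of RpL10Ab and beta4GalNAcTA was lower in csn5null larvae at 72 h (-0.29 ± 0.08) and higher in csn51 larvae at 96 h (0.16 ± 0.07) and csn53 larvae at 60 h (0.19 ± 0.07) and 96 h (0.22 ± 0.07). The 2 entries of eIF4G2 and CG33111 disagreed in csn51 larvae at 96 h, with 0.02 ± 0.06 on one and -0.51 ± 0.13 on the other.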
